A study of Mus musculus with 8 samples.

Results

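The DNA replication machinery was examined as 50 genes, chosen by name for their part in licensing origins, unwinding and copying DNA and supplying nucleotides, out of 25078 gene rows in the deposited tables. Each of the 50 was found, and 50 of 50 passed the filter on low counts that left 12428 genes for testing. Messenger RNA had been sequenced from donor T cells sorted out of recipient spleens on day 6 after allogeneic hematopoietic cell transplantation (HCT), in 8 libraries that form 4 groups of 2 replicates. WT CD4 and WT CD8 T cells came from wild-type C57BL/6 donors. STAT3KO CD4 and STAT3KO CD8 T cells came from C57BL/6 donors that are Stat3 fl/fl and carry CD4-Cre, a recombinase under Cd4 regulatory sequences that are active in the thymic precursors of both lineages, so that the floxed part of Stat3 is removed in CD4 and CD8 T cells alike. What the groups share is the recipient, a lethally irradiated WT BALB/c mouse that also received T cell-depleted bone marrow from WT C57BL/6 donors. The sort took donor-type (H-2Kb+) TCRβ+ cells by coreceptor. Each library pools cells of several recipients, so the replicates are pools, and p-values measure the spread between these pools. Whether WT donors carried the Cre or the floxed allele, and the age of the mice, are not given in the sources used here.

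The libraries held between 20171396 and 23282757 counts. Stat3 had 428 to 436 CPM (counts scaled to library size with TMM factors) in the 4 WT libraries and 119.7 to 143 CPM in the 4 STAT3KO libraries. Cd4 and Cd8a separated the lineages. Cd8a stood at 1.70 to 16 CPM in CD4 libraries, against 819 to 984 CPM in CD8 libraries. Of marker lists for other cells, the sum over 7 macrophage genes was 6.23 to 14.3 CPM (by column total) in the libraries numbered 1 and 58.0 to 94.4 CPM in those numbered 2, in every group, so it moved with the replicate number. Its part in the results was not tested. Sums over 8 T cell genes were 4941 to 5731 CPM, over 8 genes of myeloid progenitors and neutrophils 2.41 to 11.7 CPM, and over 10 erythroid genes 1.23 to 8.50 CPM with 4 globin genes at 0 in each library. The list of 5 B cell genes moved with the groups: CD4 libraries summed to 1.19 and 1.61 CPM with STAT3 and 2.31 and 2.82 CPM without, and CD8 libraries to 12.6 to 13.2 CPM. Cd79b made up most of that sum, and the defining marker Ms4a1 stayed between 0 and 0.147 CPM. By the GENCODE M21 annotation, exons of 18 of the 50 genes share bases with another gene (Orc1, Orc2, Orc6, Mcm7, Cdc45, Gins2, Pole, Pole2, Rfc2, Rfc4, Rfc5, Rpa1, Lig1, Fen1, Tk1, Timeless, Wdhd1 and Chaf1a), mostly on the opposite strand. Whether counting used strand is not given in the sources used here, so their levels are less certain, as are those of genes with close copies in the genome.

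DNA replication starts where the origin recognition complex, with Cdc6 and Cdt1, loads the MCM ring onto DNA in G1. In S phase, kinases and loading factors turn that ring into an active helicase, polymerases copy both strands behind a sliding clamp, and Okazaki fragments on the lagging strand are processed and joined. Naive T cells are quiescent, and genes of this machinery are transcribed when cells enter the cycle, many of them under E2F factors. In HCT, donor T cells that recognise recipient tissue divide intensely in lymphoid organs. Bulk RNA does not tell a larger share of cycling cells from more transcript per cycling cell, nor fewer cells of a type from less RNA per cell.

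WT CD4 T cells had the lowest level of replication transcripts and CD8 T cells of either genotype the highest, with STAT3KO CD4 T cells between them. Summed over the 50 genes, CPM were 2964 and 2717 in the WT CD4 libraries, 4234 and 4348 where CD4 cells lacked STAT3, 6695 and 5646 in WT CD8, and 6814 in both STAT3KO CD8 libraries. The CD4 groups did not overlap with each other or with CD8, and the STAT3KO CD8 sums lay just above the higher WT CD8 sum. For 42 of the 50 genes, both WT CD4 libraries lay below both STAT3KO CD4 libraries and these below both WT CD8 libraries, an order that 6.88% of all tested genes showed. By group mean, 48 genes were lowest in WT CD4, 39 were highest in STAT3KO CD8 and 11 were highest in WT CD8 T cells. The WT CD8 libraries differed in level: 45 genes were higher in replicate 1, by a median of 0.21 on the log2 scale.

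**Figure D1:**
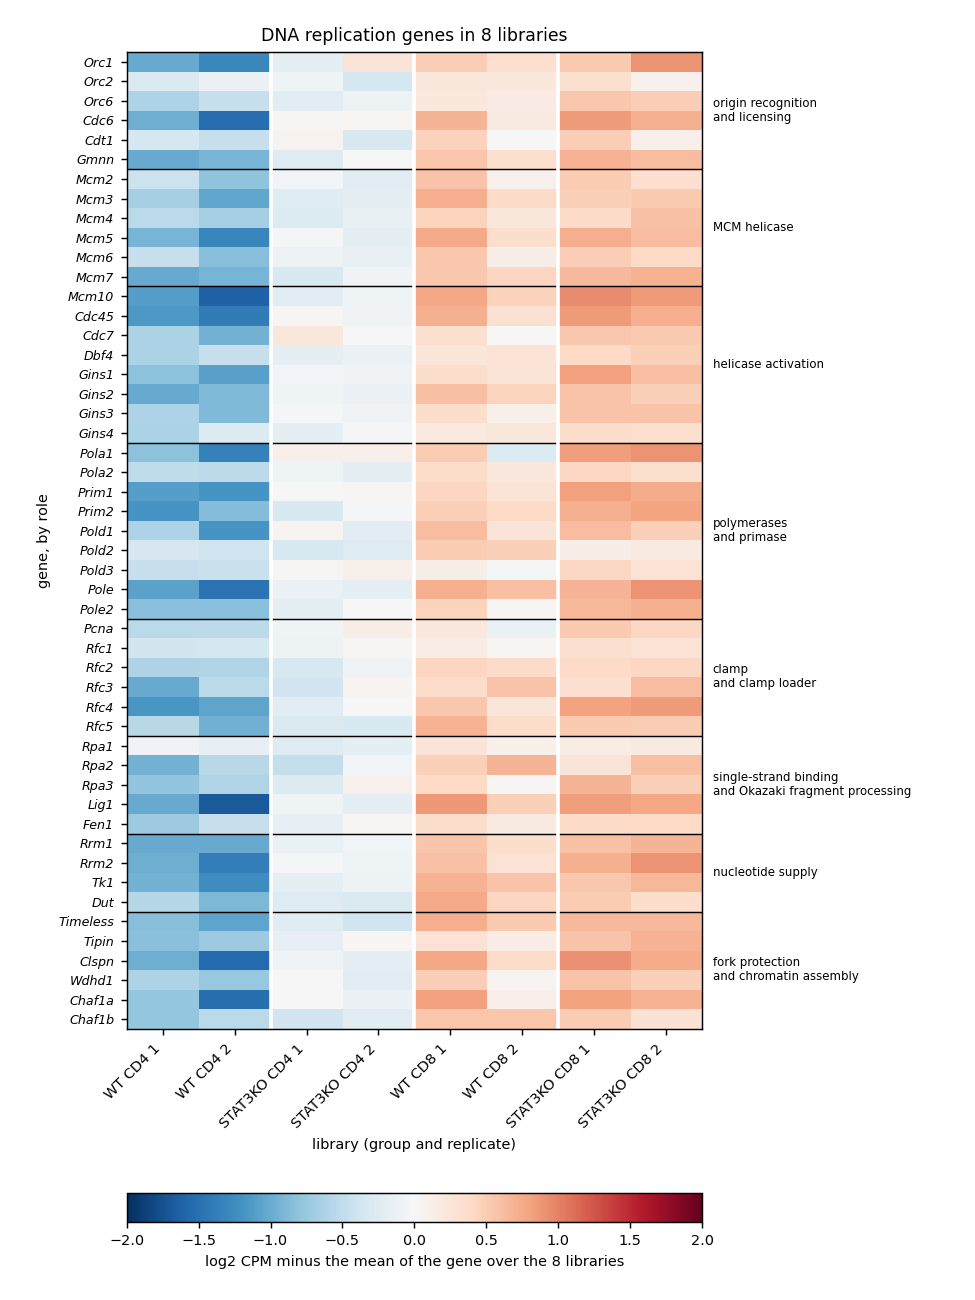
Log2 CPM of each of the 50 genes (rows, grouped by role) in the 8 libraries (columns), as the difference from that gene's mean over the libraries. Blue is below and red above the mean; the WT CD4 columns are the bluest, the STAT3KO CD4 columns pale and the CD8 columns mostly red, and 48 genes are lowest on average in WT CD4 T cells.

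The 5' ends of these genes were read for E2F sites, since E2F factors are the textbook activators of replication genes. RefSeq promoter windows (GRCm38.p6, 250 bases before to 50 after the start) were used for the 41 of the 50 genes that matched by symbol. Their start was not always that of the deposited gene: it lay 6003 bases away in Timeless, 350 in Cdc6, 267 in Dut and 138 in Lig1. The 4 spellings TTTCCCGC, TTTCGCGC, TTTGCCGC and TTTGGCGC, searched on both strands, matched in 14 of these 41 windows (34.1%), against 4.34% of the 9836 windows of tested genes and 2.88% of all 18504 windows. The CHR element TTTGAA, which marks many mitotic promoters, was in 14.6% of the members' windows against 12.2% of tested genes, and the letters CCAAT were in 58.5% against 39.6%. Of the 14 genes with an E2F match, 10 were called higher in STAT3KO CD4 T cells (edgeR adjusted p under 0.05, median log2 fold change 0.76). Of the 27 without, 13 were (median 0.56), a difference that was not tested. Among all tested genes, with or without a match, 6.54% were called higher. These are matches of letters in a short window and not measured binding. The 200 bases before the start are shown for Mcm5, Mcm6 and Pola1, whose matches lie upstream of the start with no annotated exon (GENCODE M21) in those bases. Orc2 is shown as a window without a match, and its STAT3KO effect was the closest to 0 of the licensing genes. An exon of the noncoding gene Gm15834 crosses the 200 bases of Orc2. It does not stand for all genes without a match, since Cdc45 (log2 fold change 1.24 in CD4) and Prim1 (1.15) had none and rose. Mcm6, with 3 matches, was not called (edgeR adjusted p 0.099). Capitals mark the E2F match, read 5' to 3' along the gene, where a match on the opposite strand appears as its reverse complement. In Mcm5 and Mcm6 the longer run of capitals is a pair of overlapping matches on opposite strands.
Mcm5, chr8:75109309-75109508, plus strand: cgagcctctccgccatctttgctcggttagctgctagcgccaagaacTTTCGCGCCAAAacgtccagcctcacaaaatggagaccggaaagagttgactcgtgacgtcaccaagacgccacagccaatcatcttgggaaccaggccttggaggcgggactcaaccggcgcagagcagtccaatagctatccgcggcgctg
Mcm6, chr1:128359706-128359905, minus strand: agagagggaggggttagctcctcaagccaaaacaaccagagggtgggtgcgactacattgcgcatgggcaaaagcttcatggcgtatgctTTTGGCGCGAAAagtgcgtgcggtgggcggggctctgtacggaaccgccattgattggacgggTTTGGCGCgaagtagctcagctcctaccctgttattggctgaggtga
Pola1, chrX:93632156-93632355, minus strand: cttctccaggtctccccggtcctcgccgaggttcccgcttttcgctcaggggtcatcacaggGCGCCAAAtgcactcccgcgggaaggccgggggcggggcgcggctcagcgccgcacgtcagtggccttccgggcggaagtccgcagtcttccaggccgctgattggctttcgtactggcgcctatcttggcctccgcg
Orc2, chr1:58505110-58505309, minus strand: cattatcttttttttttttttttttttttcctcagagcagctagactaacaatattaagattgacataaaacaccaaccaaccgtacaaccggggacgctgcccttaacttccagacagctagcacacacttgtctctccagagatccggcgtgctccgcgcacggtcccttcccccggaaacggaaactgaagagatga
Counted to the first base of each match, these sites lay 153 and 149 bases before the start in Mcm5, 110, 106 and 47 in Mcm6 and 138 in Pola1.

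Comparing CD4 T cells with and without STAT3 asks whether the level of replication transcripts differs when donor CD4 T cells lack STAT3. They were higher without STAT3: 30 of the 50 genes were called higher and 0 lower (edgeR quasi-likelihood test, adjusted p under 0.05 over all tested genes), where 6.54% of all tested genes were called higher and 5.08% lower. The median log2 fold change of the 50 genes was 0.65, against 0.017 over all tested genes, and it was 0.63 between the libraries numbered 1 and 0.77 between those numbered 2. Both STAT3KO libraries lay above both WT libraries for 48 genes, against 28.5% of all tested genes. The exceptions were Orc2, which overlapped, and Rpa1, which was lower in both STAT3KO libraries. The 20 genes not called were Orc2, Orc6, Cdt1, Mcm2, Mcm4, Mcm6, Gins4, Pola2, Pold1, Pold2, Rfc1, Rfc3, Rfc5, Rpa1, Rpa2, Rpa3, Dut, Wdhd1, Chaf1a and Chaf1b. With the replicate number as a block, 46 genes were called higher (16.5% of all tested genes). When a library of either CD4 group was left out, the median was 0.66 to 0.70. Fewer of the 50 genes were called in those fits, for which the share over all tested genes is not given here. Cd8a, a marker of the other lineage, was lower in STAT3KO than in WT CD4 in the libraries numbered 1 (1.70 against 2.89 CPM), where 49 genes were higher in STAT3KO. In those numbered 2 it was higher in STAT3KO (16 against 11.2 CPM), as was Cd8b1 (36.1 against 28.5 CPM), with 48 genes higher. The part of CD8 T cell transcripts in these differences was not tested.

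**Figure D2:**
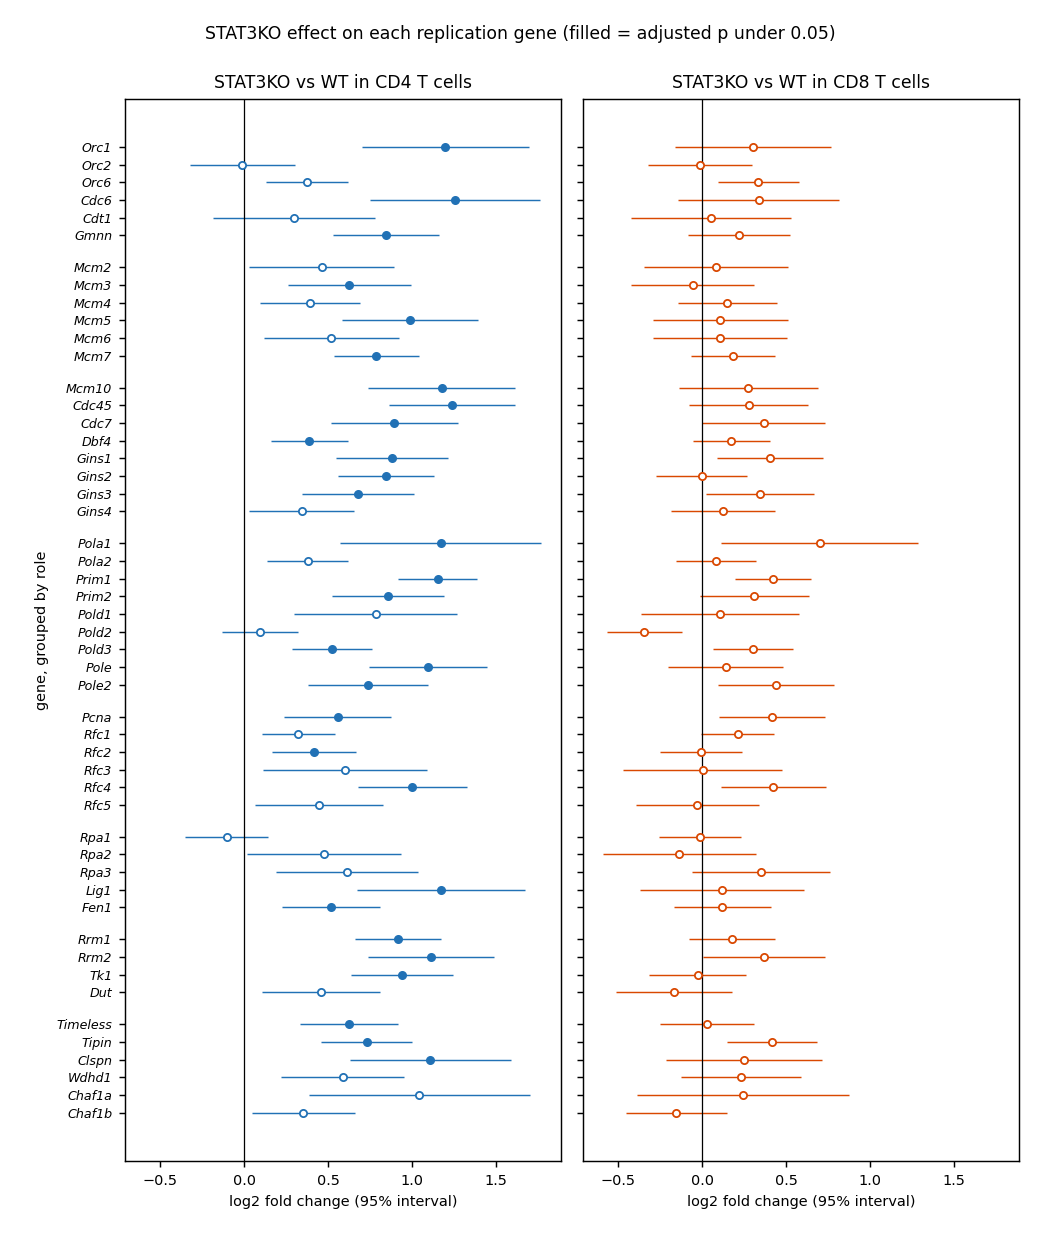
Log2 fold change of STAT3KO over WT with its 95% interval for each gene, in CD4 (left) and CD8 T cells (right); filled points were called at an adjusted p under 0.05. In CD4 T cells 30 points are filled, all right of 0, and in CD8 T cells 0 are filled and the points lie around a median of 0.18.

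Origins are recognised by the ORC proteins and licensed by Cdc6 and Cdt1, which geminin (Gmnn) restrains. Of these 6 genes, 3 rose in STAT3KO CD4 T cells. The largest change was in Cdc6 (chromosome 11, 98907801 to 98923942, plus strand), the ATPase that helps ORC load the MCM ring. The WT libraries held Cdc6 at 14.4 and 9.78 CPM (CD4) and 45.1 and 32.0 CPM (CD8), and the STAT3KO libraries at 28.8 and 29.0 CPM (CD4) and 51.0 and 46.3 CPM (CD8). The 2 STAT3KO CD4 libraries were nearly equal and lay above WT CD4 and below both WT CD8 libraries. Cdc6 rose in STAT3KO CD4 T cells (log2 fold change of 1.26 ± 0.22 (SE), with an edgeR adjusted p of 0.0115), a call that was lost without WT CD4 replicate 2 (adjusted p 0.0589), STAT3KO CD4 replicate 1 (0.0677) or STAT3KO CD4 replicate 2 (0.0671). Orc1, the large ORC subunit whose level varies over the cell cycle, rose by 1.20 and geminin by 0.85 on the log2 scale (adjusted p 0.013 and 0.00838). Orc6 and Cdt1 had log2 fold changes of 0.37 and 0.30 and were not called (adjusted p 0.0603, 0.0126 with the replicate block, and 0.413). The smallest estimate was that of Orc2 (chromosome 1, 58462771 to 58505109, minus strand), a core ORC subunit. In CD4 libraries Orc2 stood at 56.9 and 64.2 CPM with STAT3 and 65.7 and 54.5 CPM without it, and in CD8 libraries at 81.0 and 80.3 CPM with and 86.7 and 73.4 CPM without STAT3. Its WT CD4 and STAT3KO CD4 values overlapped, and the fold change was near 0 (log2 fold change of -0.01 ± 0.13 (SE), with an edgeR adjusted p of 0.969, 95% interval -0.32 to 0.30).

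The MCM ring, made of Mcm2 to Mcm7, is the motor of the replicative helicase, and its 6 genes were higher in both STAT3KO CD4 libraries than in both WT CD4 libraries. Of them 3 rose: Mcm5 (0.99), Mcm7 (0.79) and Mcm3 (0.63), as log2 fold changes. Mcm5 (chromosome 8, 75109509 to 75128439, plus strand) changed most. For Mcm5 the CD4 values were 128 and 98.2 CPM (WT) and 235 and 213 CPM (STAT3KO), and the CD8 values 408 and 310.2 CPM (WT) and 402 and 372 CPM (STAT3KO). The CD8 libraries of both genotypes lay above every CD4 library. Mcm5 rose in STAT3KO CD4 T cells (log2 fold change of 0.99 ± 0.18 (SE), with an edgeR adjusted p of 0.0125), and the call was lost without WT CD4 replicate 2 (adjusted p 0.0722), STAT3KO CD4 replicate 1 (0.089) or STAT3KO CD4 replicate 2 (0.0574). Mcm4 (chromosome 16, 15623897 to 15637400, minus strand) had the smallest estimate. Without STAT3, Mcm4 reached 201 and 221 CPM in CD4 libraries against 167 and 154 CPM in WT, and in CD8 libraries 317 and 365 CPM against 331 and 285 CPM in WT. The CD4 groups did not overlap, but Mcm4 was not called (log2 fold change of 0.39 ± 0.13 (SE), with an edgeR adjusted p of 0.0922, or 0.0187 with the replicate block). Mcm2 (0.46) and Mcm6 (0.52) were not called either (adjusted p 0.16 and 0.099, and 0.00398 and 0.00361 with the block).

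Levels of the 6 MCM genes could be compared with each other on the deposited RPKM scale, which is per exon length. Although the ring holds the 6 proteins in equal number, their transcripts differed by 2.19-fold to 3.54-fold between the highest and the lowest gene of a library. Mcm6 was the highest in each of the 8 libraries. CD4 libraries had 64.9 and 50.4 RPKM of Mcm6 with STAT3 and 83.1 and 79.2 RPKM without, and CD8 libraries 129.9 and 96.1 RPKM with and 126 and 116 RPKM without STAT3. The lowest was Mcm7 in both WT CD4 libraries and in replicate 1 of the other groups, and Mcm2 in replicate 2 of the other groups. For Mcm7 the CD4 values were 18.3 and 19.6 RPKM (WT) and 29.7 and 34.4 RPKM (STAT3KO), and the CD8 values 53.9 and 49.2 RPKM (WT) and 57.4 and 58.9 RPKM (STAT3KO). Mcm2 had 30.0 and 23.6 RPKM (WT) and 38.6 and 33.9 RPKM (STAT3KO) in CD4 libraries, and 60.3 and 42.7 RPKM (WT) and 57.6 and 50.4 RPKM (STAT3KO) in CD8 libraries. Outside WT CD4 the order of these 2 genes thus depended on the library. Mcm3, Mcm4 and Mcm5 lay between. Mcm5 moved up the order: with 36.8 and 28.8 RPKM it was below Mcm3 and Mcm4 in both WT CD4 libraries, and with 116 and 106 RPKM above both genes in the STAT3KO CD8 libraries. There Mcm3 had 92.6 and 94.3 RPKM and Mcm4 87.8 and 99.4 RPKM, against 41.9 and 32.8 RPKM (Mcm3) and 46.2 and 43.3 RPKM (Mcm4) in WT CD4. Over the 50 genes, Orc1 was the lowest per length in each library (1.82 to 8.0 RPKM), while the highest was Rpa1 in the WT CD4 libraries (96.3 and 101 RPKM), Rpa2 in WT CD8 replicate 2 (144.5 RPKM) and Pcna in the other libraries (107 to 163 RPKM).

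**Figure D3:**
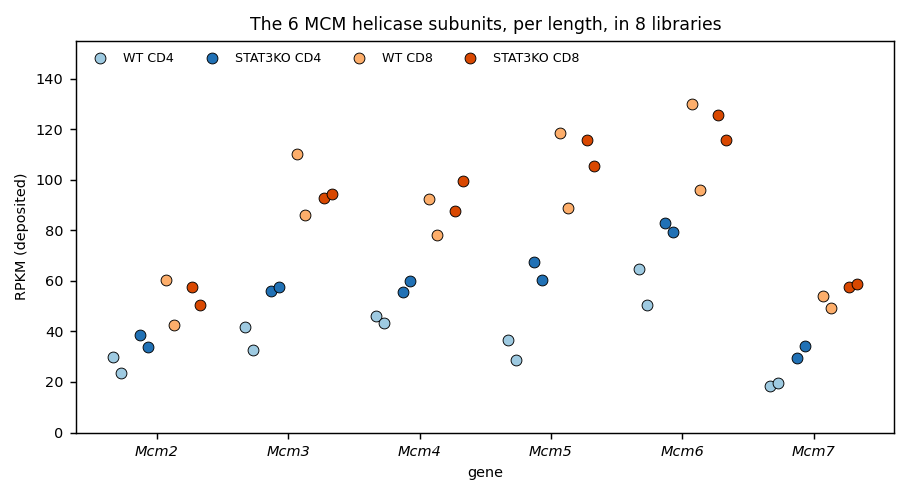
RPKM (vertical axis, as deposited) of Mcm2 to Mcm7 in each library, with a point per library and colours for the 4 groups. Mcm6 is the highest gene in every library, at 50.4 to 130 RPKM, and for each gene the WT CD4 points are the lowest.

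Helicase activation had the largest share of called genes among the roles with more than 4 members: 7 of 8 rose in STAT3KO CD4 T cells. Cdc45 (chromosome 16, 18780447 to 18811972, minus strand), which joins MCM and GINS in the active helicase, changed most. The WT libraries held Cdc45 at 18.3 and 15.4 CPM (CD4) and 66.0 and 49.9 CPM (CD8), and the STAT3KO libraries at 40.9 and 38.4 CPM (CD4) and 73.1 and 67.1 CPM (CD8). The groups did not overlap and WT CD4 stood well below the rest. Cdc45 rose in STAT3KO CD4 T cells (log2 fold change of 1.24 ± 0.16 (SE), with an edgeR adjusted p of 0.00392). Mcm10, which acts at the step from loaded to active helicase, was close behind. In CD4 libraries Mcm10 stood at 18.1 and 12.6 CPM with STAT3 and 33.0 and 36.3 CPM without it, and in CD8 libraries at 66.3 and 52.9 CPM with and 74.4 and 69.7 CPM without STAT3. It rose too (log2 fold change of 1.18 ± 0.19 (SE), with an edgeR adjusted p of 0.00834). Of the kinase that fires origins, the catalytic subunit Cdc7 (0.90) and its activator Dbf4 (0.39) rose, as did 3 of the 4 GINS genes, Gins1 (0.88), Gins2 (0.85) and Gins3 (0.68), given as log2 fold changes. The fourth, Gins4 (chromosome 8, 23226610 to 23237668, minus strand), had the smallest estimate of the role. For Gins4 the CD4 values were 29.8 and 38.2 CPM (WT) and 40.8 and 45.4 CPM (STAT3KO), and the CD8 values 53.0 and 54.2 CPM (WT) and 59.2 and 57.5 CPM (STAT3KO). Its CD4 groups came close to each other, and it was not called (log2 fold change of 0.34 ± 0.14 (SE), with an edgeR adjusted p of 0.151, or 0.036 with the replicate block).

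Of the 9 genes of polymerases and primase, 6 rose in STAT3KO CD4 T cells. Pola1 (chromosome X, 93304766 to 93632155, minus strand), the catalytic subunit of polymerase alpha, which with primase starts each new strand, changed most. Without STAT3, Pola1 reached 111 and 112 CPM in CD4 libraries against 58.3 and 40.5 CPM in WT, and in CD8 libraries 184 and 194 CPM against 147 and 85.4 CPM in WT. Here WT CD8 replicate 2 lay below both STAT3KO CD4 libraries, and the WT CD8 libraries were far apart. Pola1 rose in STAT3KO CD4 T cells (log2 fold change of 1.17 ± 0.26 (SE), with an edgeR adjusted p of 0.027), and lost its call without WT CD4 replicate 2 (adjusted p 0.14), STAT3KO CD4 replicate 1 (0.121), STAT3KO CD4 replicate 2 (0.117), STAT3KO CD8 replicate 1 (0.0532) or STAT3KO CD8 replicate 2 (0.0537). Both primase subunits rose. The WT libraries held Prim1 at 33.0 and 31.4 CPM (CD4) and 95.5 and 85.8 CPM (CD8), and the STAT3KO libraries at 70.8 and 72.4 CPM (CD4) and 125 and 118 CPM (CD8). Prim1 had the smallest adjusted p of the 50 genes (log2 fold change of 1.15 ± 0.10 (SE), with an edgeR adjusted p of 0.00114), and Prim2 rose by 0.86 on the log2 scale. Both genes of the leading-strand enzyme polymerase epsilon rose, the catalytic subunit Pole and Pole2 (0.74). In CD4 libraries Pole stood at 42.9 and 32.1 CPM with STAT3 and 81.9 and 78.1 CPM without it, and in CD8 libraries at 147 and 136 CPM with and 144 and 168 CPM without STAT3. For Pole the WT CD4 values lay far below the rest (log2 fold change of 1.09 ± 0.15 (SE), with an edgeR adjusted p of 0.00496). Polymerase delta, which copies the lagging strand, gave a mixed picture. Its subunit Pold3 rose (0.52), and the catalytic Pold1 did not pass the test (log2 fold change of 0.78 ± 0.21 (SE), with an edgeR adjusted p of 0.0514, or 0.000428 with the replicate block). Pola2, the second subunit of polymerase alpha, had a log2 fold change of 0.38 (adjusted p 0.0579, 0.006 with the block). The smallest estimate was that of Pold2 (chromosome 11, 5872180 to 5878256, minus strand), a delta subunit. For Pold2 the CD4 values were 26.9 and 25.8 CPM (WT) and 27.7 and 28.5 CPM (STAT3KO), and the CD8 values 48.5 and 47.3 CPM (WT) and 37.1 and 38.3 CPM (STAT3KO). The 4 CD4 libraries were close together, although both STAT3KO values were the higher ones (log2 fold change of 0.09 ± 0.10 (SE), with an edgeR adjusted p of 0.597, 95% interval -0.13 to 0.32).

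PCNA is the sliding clamp that keeps polymerases on DNA, and the RFC complex of Rfc1 to Rfc5 opens and loads it. Of these 6 genes 3 rose in STAT3KO CD4 T cells: Rfc4 (1.00), Pcna (0.56) and Rfc2 (0.42), as log2 fold changes. Rfc4 (chromosome 16, 23113948 to 23127730, minus strand) changed most. Without STAT3, Rfc4 reached 36.7 and 43.4 CPM in CD4 libraries against 19.3 and 20.8 CPM in WT, and in CD8 libraries 75.4 and 77.5 CPM against 62.7 and 51.3 CPM in WT. No group overlapped another, with WT CD4 lowest and STAT3KO CD8 highest. Rfc4 rose in STAT3KO CD4 T cells (log2 fold change of 1.00 ± 0.14 (SE), with an edgeR adjusted p of 0.005). In CD4 libraries Pcna stood at 99.9 and 100.5 CPM with STAT3 and 137 and 158 CPM without it, and in CD8 libraries at 169 and 132 CPM with and 207 and 194 CPM without STAT3. For Pcna, WT CD8 replicate 2 fell below both STAT3KO CD4 libraries (log2 fold change of 0.56 ± 0.14 (SE), with an edgeR adjusted p of 0.0384 in CD4). Rfc1 (chromosome 5, 65261852 to 65335639, minus strand), the large subunit of the loader, had the smallest estimate. For Rfc1 the CD4 values were 98.5 and 99.5 CPM (WT) and 119 and 129 CPM (STAT3KO), and the CD8 values 142 and 130.3 CPM (WT) and 158 and 156 CPM (STAT3KO). Its CD4 groups were apart by more than the spread within either, but it was not called (log2 fold change of 0.32 ± 0.09 (SE), with an edgeR adjusted p of 0.0651, or 0.0128 with the replicate block). Rfc3 (0.60) and Rfc5 (0.45) were not called (adjusted p 0.112 and 0.127, and 0.00193 and 0.0193 with the block).

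RPA coats single-stranded DNA, Fen1 trims the flaps of Okazaki fragments and DNA ligase I joins them. Of these 5 genes, Lig1 and Fen1 (0.52, adjusted p 0.0382) rose in STAT3KO CD4 T cells. Lig1 (chromosome 7, 13277313 to 13311427, plus strand) changed most. The WT libraries held Lig1 at 65.2 and 41.2 CPM (CD4) and 239 and 184 CPM (CD8), and the STAT3KO libraries at 124 and 116 CPM (CD4) and 235 and 223 CPM (CD8). Both WT CD4 values were far below the others. Lig1 rose in STAT3KO CD4 T cells (log2 fold change of 1.17 ± 0.22 (SE), with an edgeR adjusted p of 0.0144), a call lost without STAT3KO CD4 replicate 1 (adjusted p 0.088) or STAT3KO CD4 replicate 2 (0.0674). Rpa1 (chromosome 11, 75300259 to 75348383, minus strand), the large RPA subunit, went the other way in its values. Without STAT3, Rpa1 reached 277 and 293 CPM in CD4 libraries against 316 and 297 CPM in WT, and in CD8 libraries 368 and 377 CPM against 397 and 356 CPM in WT. Both STAT3KO CD4 libraries were below both WT CD4 libraries, without a call (log2 fold change of -0.10 ± 0.11 (SE), with an edgeR adjusted p of 0.588, 95% interval -0.35 to 0.14). The smaller RPA subunits, Rpa2 (0.47) and Rpa3 (0.61), were not called (adjusted p 0.171 and 0.0715, and 0.00185 and 0.0205 with the block).

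Deoxynucleotides come from ribonucleotide reductase (Rrm1 and Rrm2) and, by salvage, from thymidine kinase (Tk1), while dUTPase (Dut) keeps uracil out of DNA. Of these 4 genes 3 rose in STAT3KO CD4 T cells: Rrm2 (1.11), Tk1 (0.94) and Rrm1 (0.92), as log2 fold changes. Rrm2 (chromosome 12, 24708254 to 24714146, plus strand), the subunit whose level peaks in S phase, changed most. In CD4 libraries Rrm2 stood at 57.9 and 43.6 CPM with STAT3 and 111 and 108 CPM without it, and in CD8 libraries at 170.2 and 139 CPM with and 187 and 211 CPM without STAT3. The 4 groups did not overlap and the CD4 pairs were tight beside the gap between them. Rrm2 rose in STAT3KO CD4 T cells (log2 fold change of 1.11 ± 0.16 (SE), with an edgeR adjusted p of 0.00593). For Tk1 the CD4 values were 18.5 and 15.03 CPM (WT) and 31.4 and 33.0 CPM (STAT3KO), and the CD8 values 57.6 and 52.9 CPM (WT) and 52.0 and 56.4 CPM (STAT3KO). For Tk1, CD8 libraries of both genotypes shared a range (log2 fold change of 0.94 ± 0.13 (SE), with an edgeR adjusted p of 0.00496 in CD4). Dut (chromosome 2, 125247248 to 125259049, plus strand) had the smallest estimate. The WT libraries held Dut at 81.4 and 65.0 CPM (CD4) and 205 and 163 CPM (CD8), and the STAT3KO libraries at 102 and 99.2 CPM (CD4) and 172 and 154 CPM (CD8). Its CD4 groups did not overlap, without a call (log2 fold change of 0.46 ± 0.15 (SE), with an edgeR adjusted p of 0.0968, or 0.00369 with the replicate block).

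At the moving fork, Timeless and Tipin form the protection complex, claspin (Clspn) mediates checkpoint signalling, Wdhd1 links helicase and polymerase alpha, and CAF-1 (Chaf1a and Chaf1b) places histones on new DNA. Of these 6 genes 3 rose in STAT3KO CD4 T cells: Clspn (1.11), Tipin (0.73) and Timeless (0.62), as log2 fold changes. Clspn (chromosome 4, 126556980 to 126593903, plus strand) changed most. Without STAT3, Clspn reached 80.4 and 73.9 CPM in CD4 libraries against 42.7 and 28.8 CPM in WT, and in CD8 libraries 159.6 and 141 CPM against 144 and 108 CPM in WT. The WT CD4 libraries were the lowest by a wide margin. Clspn rose in STAT3KO CD4 T cells (log2 fold change of 1.11 ± 0.21 (SE), with an edgeR adjusted p of 0.0148), and lost its call without WT CD4 replicate 2 (adjusted p 0.0676), STAT3KO CD4 replicate 1 (0.0926) or STAT3KO CD4 replicate 2 (0.0676). Wdhd1 (0.59) and Chaf1a (1.04) just missed the threshold (adjusted p 0.0524 and 0.0546, and 0.0015 and 0.00101 with the block). Chaf1b (chromosome 16, 93883901 to 93906106, plus strand) had the smallest estimate. In CD4 libraries Chaf1b stood at 34.5 and 40.8 CPM with STAT3 and 45.2 and 51.0 CPM without it, and in CD8 libraries at 86.9 and 87.3 CPM with and 84.5 and 71.9 CPM without STAT3. Its CD4 groups were apart by a few CPM (log2 fold change of 0.35 ± 0.13 (SE), with an edgeR adjusted p of 0.134, or 0.0427 with the replicate block). Of the 8 genes that changed most in their role, Cdc45, Rfc4 and Rrm2 kept their call whichever library was left out, with adjusted p up to 0.0477.

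**Figure D4:**
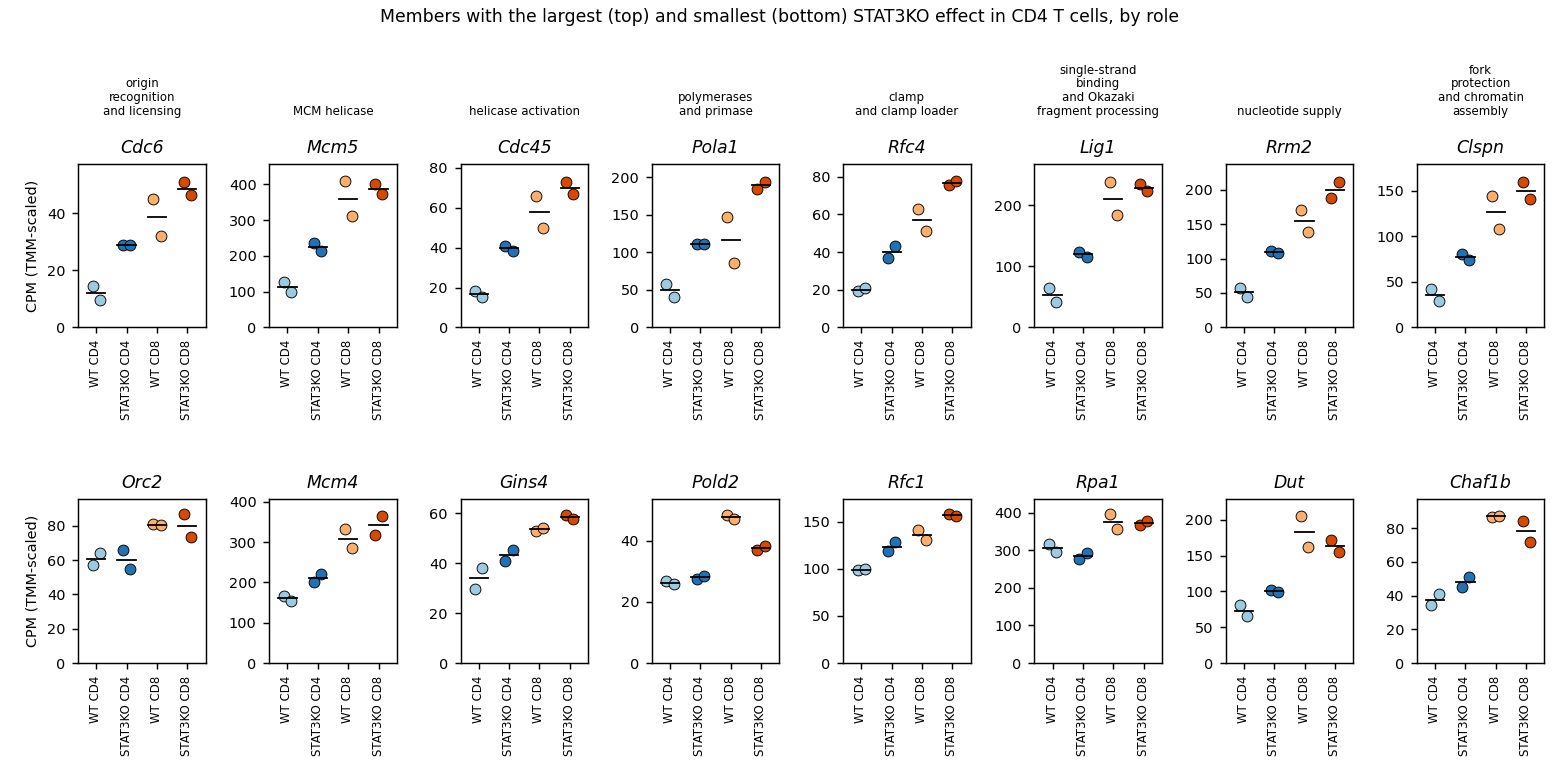
CPM (TMM-scaled, linear axis from 0) in each library for the gene with the largest (top row) and the smallest (bottom row) STAT3KO effect in CD4 T cells in each of the 8 roles. Points are libraries and lines are means of 2; in the top row the 2 WT CD4 points lie below all others, while Orc2, Pold2 and Rpa1 in the bottom row show CD4 groups that overlap or nearly touch.

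The same comparison in CD8 T cells asks whether these transcripts differ between the genotypes in the lineage that expresses them most. No gene of the 50 was called (0 of 50, where 2.07% of all tested genes were called). At an unadjusted p under 0.05, 11 genes were higher (10.7% of all tested genes) and 1 lower (8.59%), and DESeq2 called 2 higher (4.56%), Prim1 (adjusted p 0.0146) and Tipin (0.0440). The median log2 fold change was 0.18, with 39 genes above 0 (49.1% of all tested genes were) and 11 below, and it differed between the libraries numbered 1 (0.064) and those numbered 2 (0.29). Both STAT3KO CD8 libraries lay above both WT CD8 libraries for 25 genes (24.9% of all tested genes did) and below for 2 (24.8%). For 49 of the 50 genes the 95% interval lay within 2-fold either way, the exception being Pola1 (0.11 to 1.29 on the log2 scale). In CD4 T cells 23 intervals lay within 2-fold too, while 46 lay above 0. A 2-fold bound thus does not exclude effects of the size seen in CD4. Pola1, whose WT CD8 libraries were far apart, had a log2 fold change of 0.70 ± 0.25 (SE), with an edgeR adjusted p of 0.187, or 0.0174 with the replicate block. With the replicate block, 10 genes were called higher (10.3% of all tested genes) and 1 lower (7.89%). The higher ones were Orc6, Cdc7, Gins1, Pola1, Prim1, Pold3, Pole2, Pcna, Rfc4 and Tipin, with log2 fold changes of 0.30 to 0.74, and the lower one was Pold2. In Pold2 both STAT3KO CD8 libraries were below both WT CD8 libraries (log2 fold change of -0.35 ± 0.10 (SE), with an edgeR adjusted p of 0.108, or 0.0252 with the replicate block), and so they were in Chaf1b (log2 fold change of -0.15 ± 0.13 (SE), with an edgeR adjusted p of 0.587). Without WT CD8 replicate 1 the median was 0.31, and without WT CD8 replicate 2 it was 0.076.

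Whether the STAT3KO effect differed between the lineages was tested as an interaction. It was smaller in CD8 than in CD4 T cells for 49 of the 50 genes by estimate, with a median difference of -0.52 (CD8 minus CD4, log2), where 47.1% of all tested genes had an estimate above 0. In the edgeR test 0 genes were called, which was 0% of all 12428 tested genes. Pold2 and Chaf1b were the 2 genes with both STAT3KO libraries above both WT libraries in CD4 and below both in CD8, an arrangement held by 1.59% of all tested genes. At an unadjusted p under 0.05, 26 genes had a smaller effect in CD8 and 0 a larger one, against 4.58% and 3.32% of all tested genes. DESeq2 called 8 genes, all smaller in CD8 (0.966% of all tested genes): Cdc45, Gins2, Lig1, Mcm5, Pole, Prim1, Rrm1 and Tk1. With the replicate block 17 were called (2.08% of all tested genes), those 8 and Cdc6, Clspn, Dut, Mcm10, Mcm7, Pold1, Rpa2, Rrm2 and Timeless. The difference thus passed the threshold only in fits that use the pairing or DESeq2. The smallest p-values were those of Tk1, Prim1 and Gins2. For Tk1 the CD4 effect of 0.94 stood against -0.03 in CD8, a difference of -0.97 ± 0.18 (SE, adjusted p 0.145, 0.0128 with the block). Prim1 had effects of 1.15 and 0.42, a difference of -0.73 ± 0.14 (SE, adjusted p 0.156, 0.0103 with the block). In CD4 libraries Gins2 stood at 9.28 and 10.1 CPM with STAT3 and 17.6 and 17.2 CPM without it, and in CD8 libraries at 28.4 and 25.2 CPM with and 27.5 and 25.9 CPM without STAT3. In Gins2, a GINS subunit, CD8 libraries of both genotypes overlapped, and the effects were 0.85 in CD4 and near 0 in CD8 (difference -0.85, SE 0.17, adjusted p 0.167, 0.0207 with the block). The 4 nucleotide supply genes each had an unadjusted p under 0.05 for this difference, the only role where each gene did. The differences were -0.97 in Tk1, -0.74 in Rrm1, -0.74 in Rrm2 and -0.63 in Dut. Rpa1, at 0.09, was the only gene with an estimate above 0.

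CD8 T cells carried more replication transcript than CD4 T cells in both genotypes. In WT, 47 of the 50 genes were called higher in CD8 and 0 lower (12.2% of all tested genes were called higher and 11.6% lower), with a median log2 fold change of 1.24, and both CD8 libraries lay above both CD4 libraries in 50 of 50 genes (29.2% of all tested genes). In STAT3KO, 31 genes were called higher (5.84% of all tested genes) and 0 lower (6.67%), with a median of 0.70 and again no overlap in 50 genes (29.6%). These comparisons share libraries with those between genotypes, WT CD4 above all, so they are not independent of them. The B cell list given above, carried by Cd79b, moved the same way, and its part was not tested. The genes not called in WT were Orc2 (0.41), Cdt1 (0.66) and Rpa1 (0.30), whose adjusted p were 0.0609, 0.0566 and 0.0819, and 0.0125, 0.000503 and 0.0163 with the block. In WT the count was 41 to 47 when any library was left out. In STAT3KO the median was 0.66 to 0.74 when a STAT3KO library was left out, and fewer of the 50 genes were called. The share over all tested genes is not given here for those fits. With the block 50 genes were called in STAT3KO (14.4% of all tested genes).

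The largest lineage differences in WT were in Lig1, Mcm10 and Pole, whose levels in each library are given above. Lig1 was higher in WT CD8 than WT CD4 T cells by 1.99 on the log2 scale (SE 0.22, edgeR adjusted p 0.00073), Mcm10 by 1.96 (SE 0.19, adjusted p 0.000424) and Pole by 1.92 (SE 0.15, adjusted p 0.000233). The smallest among the called genes were in Rfc1, Pold3 and Pcna. Without STAT3, Pold3 reached 66.4 and 70.4 CPM in CD4 libraries against 47.4 and 47.9 CPM in WT, and in CD8 libraries 87.0 and 80.4 CPM against 71.3 and 64.5 CPM in WT. Both WT CD8 libraries were above both WT CD4 libraries, but WT CD8 replicate 2 lay below the STAT3KO CD4 libraries. Pold3 was higher in WT CD8 by 0.51 (SE 0.10, adjusted p 0.01), Rfc1 by 0.46 (SE 0.09, adjusted p 0.0105) and Pcna by 0.59 (SE 0.14, adjusted p 0.0184). Without WT CD8 replicate 1 these 3 calls were lost, with log2 fold changes of 0.42, 0.38 and 0.39 (adjusted p 0.0872, 0.0949 and 0.126). Without a WT CD4 library the calls of Rfc1 (adjusted p 0.0589 without replicate 1 and 0.0507 without replicate 2) and Pcna (0.0798 and 0.0728) were lost too.

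Without STAT3 the largest lineage differences were in Mcm10 (log2 fold change of 1.06 ± 0.18 (SE), with an edgeR adjusted p of 0.0101), Timeless and Pole (log2 fold change of 0.96 ± 0.15 (SE), with an edgeR adjusted p of 0.00683). The WT libraries held Timeless at 28.8 and 25 CPM (CD4) and 85.4 and 74.1 CPM (CD8), and the STAT3KO libraries at 43.7 and 39.3 CPM (CD4) and 81.3 and 81.1 CPM (CD8). For Timeless the lineages were well apart in both genotypes, by 1.57 in WT and 0.97 in STAT3KO (adjusted p 0.000229 and 0.00329). The smallest among the called genes were in Pold2, Pola2 and Rfc2. For Pola2 the CD4 values were 46.5 and 45.6 CPM (WT) and 62.0 and 57.7 CPM (STAT3KO), and the CD8 values 84.9 and 76.1 CPM (WT) and 88.0 and 82.3 CPM (STAT3KO). Without STAT3, Rfc2 reached 63.1 and 74.5 CPM in CD4 libraries against 51.4 and 51.8 CPM in WT, and in CD8 libraries 102 and 104 CPM against 106 and 102 CPM in WT. In both genes every CD8 library exceeded every CD4 library. The log2 fold changes of CD8 over CD4 in STAT3KO were 0.42 for Pold2 (SE 0.10, adjusted p 0.0288), 0.51 for Pola2 (SE 0.10, adjusted p 0.0192) and 0.58 for Rfc2 (SE 0.11, adjusted p 0.0128). Of these 6 genes, Timeless alone kept its call whichever library was left out. The call of Mcm10 was lost without STAT3KO CD4 replicate 1 (adjusted p 0.0871), STAT3KO CD4 replicate 2 (0.0584) or STAT3KO CD8 replicate 1 (0.068), that of Pole without STAT3KO CD4 replicate 1 (adjusted p 0.0522) or STAT3KO CD4 replicate 2 (0.0602) and that of Rfc2 without STAT3KO CD4 replicate 1 (adjusted p 0.0999), STAT3KO CD8 replicate 1 (0.0697) or STAT3KO CD8 replicate 2 (0.0743). Pola2 lost its call without STAT3KO CD4 replicate 1 (adjusted p 0.0897), STAT3KO CD4 replicate 2 (0.149), STAT3KO CD8 replicate 1 (0.131) or STAT3KO CD8 replicate 2 (0.0727). Pold2 lost its call without STAT3KO CD4 replicate 1 (adjusted p 0.174), STAT3KO CD4 replicate 2 (0.142), WT CD8 replicate 1 (0.0555), WT CD8 replicate 2 (0.0566), STAT3KO CD8 replicate 1 (0.12) or STAT3KO CD8 replicate 2 (0.142).

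By role, the median log2 fold change in STAT3KO CD4 T cells was highest for nucleotide supply (0.93, 4 genes) and helicase activation (0.86, 8 genes), then polymerases and primase (0.78), fork protection and chromatin assembly (0.68), licensing (0.61), the MCM ring (0.57), single-strand binding and Okazaki processing (0.52) and the clamp and its loader (0.50). The roles were not tested against each other. In CD8 T cells the medians lay between 0.075 (nucleotide supply) and 0.30 (polymerases and primase). The lineage difference in WT was largest for nucleotide supply (1.54) and smallest for single-strand binding and Okazaki processing (0.92), and in STAT3KO the 8 medians lay between 0.61 and 0.76.

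**Figure D5:**
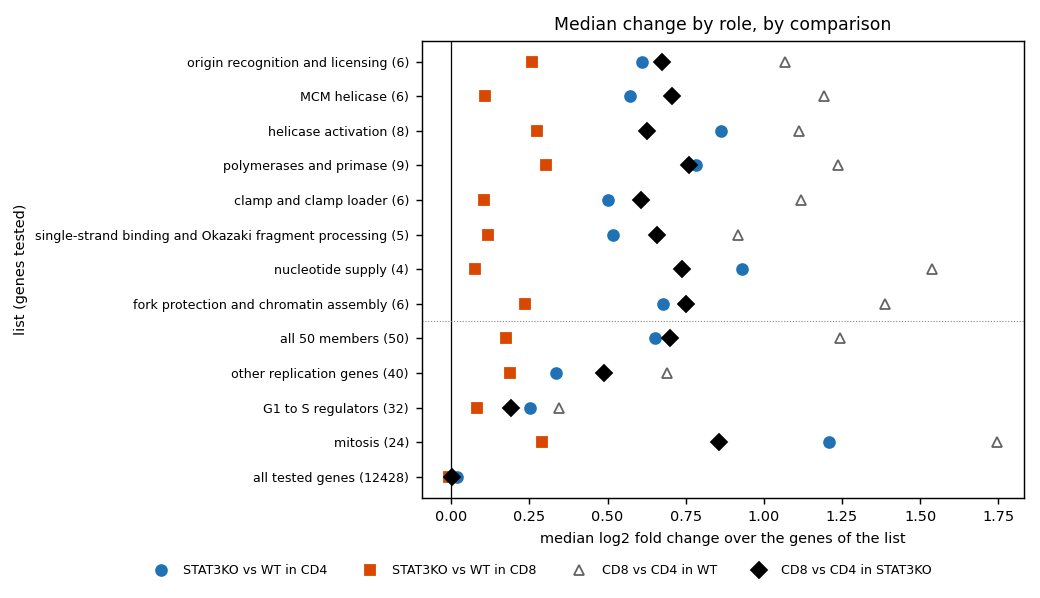
Median log2 fold change (horizontal axis) over the genes of each role, of the 50 members and of 3 other lists, with a symbol for each comparison. In every role the STAT3KO effect is larger in CD4 (circles) than in CD8 T cells (squares), and all tested genes sit near 0. The CD8 against CD4 difference is larger in WT (triangles) than in STAT3KO (diamonds). For a single gene this follows from the first pattern, since both are the same difference of effects.

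Other genes of the same processes were followed in lists that hold none of the 50. Of 40 further replication genes, 16 were called higher (6.54% of all tested genes) and 0 lower (5.08%) in STAT3KO CD4 T cells, with a median of 0.34. The largest log2 fold changes were those of Mcm8, a helicase of recombination (1.34 ± 0.25, adjusted p 0.0149), Dscc1 of an alternative clamp loader (1.23 ± 0.18, adjusted p 0.00657) and the helicase Recql4 (1.09 ± 0.27, adjusted p 0.0421), each with its SE and edgeR adjusted p. WT libraries held Mcm8 at 3.54 and 3.87 CPM (CD4) and 14.8 and 8.97 CPM (CD8), and STAT3KO libraries at 9.05 and 9.78 CPM (CD4) and 17.3 and 20.0 CPM (CD8). The smallest of the called ones were in Samhd1, which breaks down deoxynucleotides, the histone chaperone Nasp and the clamp unloader Atad5. WT libraries held Samhd1 at 736 and 726 CPM (CD4) and 537 and 509 CPM (CD8), and STAT3KO libraries at 935 and 1119 CPM (CD4) and 750.0 and 797 CPM (CD8) (log2 fold change in CD4 0.49 ± 0.11, adjusted p 0.0299). It was the 1 gene of this list called lower in WT CD8 than in WT CD4 T cells (-0.48 ± 0.11, adjusted p 0.0178). Among all tested genes 11.6% were called lower there, whereas the 50 members were higher. In CD8 T cells 1 of the 40 was called (2.07% of all tested genes were), Rrm2b, the reductase subunit that serves outside S phase and after DNA damage. WT libraries held Rrm2b at 23.6 and 23.0 CPM (CD4) and 24.0 and 20.2 CPM (CD8), and STAT3KO libraries at 27.6 and 23.3 CPM (CD4) and 34.8 and 38.0 CPM (CD8). Its log2 fold change in CD8 was 0.72 ± 0.14, adjusted p 0.0456, against 0.13 in CD4.

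Regulators of the G1 to S step had calls in both directions: of 32, 9 were called higher and 2 lower in STAT3KO CD4 T cells, with a median of 0.25. The 2 lower calls were close to the share over all tested genes, where 5.08% were called lower and 6.54% higher. Cyclin A2 (1.33 ± 0.17, adjusted p 0.00364), the activator E2f1 (0.93 ± 0.17, adjusted p 0.013) and the repressor E2f7 (0.91 ± 0.23, adjusted p 0.0433) rose most on the log2 scale, and Cdk2 rose by 0.39. Those called lower were Rb1, the retinoblastoma protein that restrains E2F (-0.78 ± 0.20, adjusted p 0.0439), and the CDK inhibitor gene Cdkn2d (-0.77 ± 0.19, adjusted p 0.0426). WT libraries held Rb1 at 137 and 125 CPM (CD4) and 75.1 and 52.3 CPM (CD8), and STAT3KO libraries at 87.2 and 65.2 CPM (CD4) and 90.3 and 80.6 CPM (CD8). In CD8 T cells 1 of the 32 was called (2.07% of all tested genes were), the cyclin gene Ccnd2. WT libraries held Ccnd2 at 189 and 138 CPM (CD4) and 92.1 and 93.8 CPM (CD8), and STAT3KO libraries at 308 and 292 CPM (CD4) and 174 and 154 CPM (CD8). Its log2 fold change in CD8 was 0.82 ± 0.15, adjusted p 0.0452, beside 0.88 in CD4. The log2 fold changes of CD8 over CD4 for Ccnd2 were below 0 (-0.81 in WT and -0.87 in STAT3KO), where the 50 members were higher. Of 24 mitotic genes 22 were called higher in STAT3KO CD4 T cells (6.54% of all tested genes), with a median of 1.21 beside the 0.65 of the replication genes. In CD8 T cells 0 were called (2.07% of all tested genes), with a median of 0.29. At an unadjusted p under 0.05, 9 of the 24 were higher in CD8 (10.7% of all tested genes). With the replicate block 10 were called higher in CD8 (10.3%). The proliferation marker Mki67 (1.11 ± 0.21, adjusted p 0.0168), Birc5 (1.11 ± 0.10, adjusted p 0.00143) and Foxm1 (1.11 ± 0.27, adjusted p 0.0367) had the smallest of the called changes among the mitotic genes, and Ttk (1.52 ± 0.21, adjusted p 0.00508) had the largest. Whether the mitotic and replication genes differ in their change was not tested.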

How the data were processed

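Donor CD4 and CD8 T cells of WT and STAT3KO origin were compared in 8 libraries, grouped by the genotype and cell type that the labels give. Per the study's methods, the authors aligned single-end reads to mm10 with STAR and counted them per RefSeq gene with HTSeq, and the deposited counts (25078 gene rows) are raw. The authors also deposited RPKM values, scaled by exon length and library size, used here only to compare genes with each other and in an alternative fit. Whether counting used strand is not given in the sources used here. The growth and treatment fields of the labels describe a mesenchymal cell line under adipogenic differentiation in every sample, and their library kit differs from that in the study's methods. These fields were not used, and groups rest on title, genotype and cell type. The study's data statement cites another series than the one analysed.

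Low counts were removed with filterByExpr at a minimum count of 10, leaving 12428 genes, and libraries were scaled by TMM (factors 0.982 to 1.03). All libraries entered 1 fit of group means in edgeR 4.0.16 under R 4.3.3, with the quasi-likelihood test, two-sided, and Benjamini-Hochberg adjustment over all tested genes. A gene was called at an adjusted p under 0.05. Intervals are 95% and come from the fitted log2 fold change and its SE, which was derived from the F statistic. Column totals were 20171396 to 23282757, so that 3 counts are 0.129 to 0.149 CPM. Such limits cover counting error only. The fit was tested on simulated data.

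The 50 genes, the roles and the other lists were chosen with earlier results of these data known. Values in every library are given for the genes with the largest and smallest effect of each role in CD4, the 3 largest and 3 smallest called lineage differences in each genotype, Mcm2 to Mcm7 in RPKM and the 3 smallest p of the interaction. Of the other lists, the 3 largest and 3 smallest called changes in CD4 could be named. Rrm2b and Ccnd2 were named after their values were seen, as were Orc1, Gmnn and other members given by fold change to account for each gene. A gene of the B cell marker list is not reported here and was left out of its sum.

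Replicate numbers were checked for pairing: deviations of same-numbered libraries from their group means correlated across genes at r of 0.424 to 0.671 over the 6 pairs of groups (12428 genes). What the number marks is not given in the labels, and values with the number as a block are given beside results they change. Alternatives were RLE factors, total counts, DESeq2 1.42.0, no filter, the block, each comparison fitted on its own libraries, limma 3.58.1 on log2(RPKM + 1) and log2(RPKM + 0.1), and leaving out each library.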

Additional observations from a re-analysis of the deposited data

Results flagged for a closer look

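The libraries of Pold2 and Chaf1b were arranged in opposite ways in the lineages, as were those of 1.59% of all tested genes. None of the 4 effects was called in edgeR without the replicate block. With the block, edgeR called Pold2 in CD8 (adjusted p 0.0252) and Chaf1b in CD4 (adjusted p 0.0427). For Pold2, a subunit of polymerase delta, both STAT3KO CD4 libraries lay above both WT CD4 libraries and both STAT3KO CD8 libraries below both WT CD8 libraries, and the difference of effects (CD8 minus CD4) was -0.44 on the log2 scale. For Chaf1b, a subunit of CAF-1, the pattern was the same and the difference was -0.51. As an interaction in edgeR neither was called, with adjusted p of 0.404 and 0.530, or 0.108 and 0.132 with the replicate block.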

How the results depend on the processing

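With 2 libraries a group, counts of calls moved with single libraries. The median of the 50 genes in CD4 T cells was 0.63 to 0.70 when a library was left out. It was 0.58 with limma on log2(RPKM + 1) and 0.62 with total counts. For STAT3KO against WT in CD4 T cells, 10 to 29 of the 50 genes were called when a library was left out, against 30 with all, and 46 with the replicate block. For CD8 against CD4 in STAT3KO T cells the counts were 3 to 35 against 31, and 50 with the block. In CD8 T cells DESeq2 called 2 genes and the block 11, and for the difference of effects DESeq2 called 8 and the block 17, each against 0 in edgeR without the block. The block uses the pairing by replicate number. Among the genes with the largest or smallest CD4 effect of their role, it brought Mcm4, Gins4, Rfc1, Dut and Chaf1b past the threshold in CD4. Mcm4 and Rfc1 passed it with DESeq2 too. In CD8 the genes among these that the block brought past the threshold were Pola1, Pold2 and Rfc4. The cause of these shifts was not tested.

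Directions turned when a library was left out for genes near 0. Orc2 in CD4 ranged from -0.18 to 0.12, and was 0.070 without WT CD4 replicate 2. In CD8 the ranges were -0.066 to 0.31 for Lig1, -0.084 to 0.31 for Mcm5, -0.14 to 0.092 for Orc2 and -0.10 to 0.058 for Rpa1. Of the values of named genes under an alternative, 684 kept direction and side of the threshold, 43 lost a call, 16 gained one and 6 turned. Scaling moved the median of all genes by less than 0.1, and the members' effects are reported on the TMM scale. Each of the 50 genes passed the filter on low counts. The part of depth in which of them were called was not tested.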
